A study of Homo sapiens with 6 samples.

Results

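The nuclear genes that encode the proteins of the mitochondrial ribosome were examined in HCT-116 cells, a human colon carcinoma line. The members were the genes whose symbol is MRPL or MRPS followed by a number and, in some cases, a letter from A to C. Of 27918 genes and loci in the expression table, 78 met this rule, with 51 proteins of the large (39S) subunit, 26 of the small (28S) subunit, and MRPS36, which is now assigned to a metabolic enzyme complex and not to the ribosome. MRPS18A and MRPS30 carry small-subunit names but belong to the large subunit, and they were counted there. Poly(A) RNA was sequenced from 3 libraries transfected with a control GapmeR (GapNC) and 3 transfected with a CASC9 GapmeR (GapC9). A GapmeR is a modified antisense oligonucleotide that directs RNase H to its target, here the long noncoding RNA CASC9. The libraries therefore share the cell line and a GapmeR transfection, and differ by label only in the GapmeR. The labels do not state that the 3 libraries of a group came from separate cultures, so the p-values measure the spread between these libraries, which may be technical.

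Mitochondrial ribosomes translate the few mRNAs encoded by mitochondrial DNA, all of which specify subunits of the respiratory chain and ATP synthase. Their ribosomal RNAs are transcribed inside the organelle, whereas every ribosomal protein is encoded in the nucleus, translated in the cytosol and imported. Some of these proteins have counterparts in all ribosomes, some only in bacterial ribosomes, and some are found only in mitochondria.

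Transcripts of the mitochondrial ribosome were at similar summed levels in both groups. Expression values were FPKM (fragments normalised to transcript length and to the mapped fragments of the library), a relative scale in which less RNA per cell and fewer cells cannot be told apart. In the GapNC libraries the members summed to 1516, 1383 and 1332 FPKM, and in the GapC9 libraries to 1456, 1328 and 1340 FPKM. The means were 1410 ± 94.8 and 1375 ± 70.4 FPKM (SD, n = 3 each), and the ranges overlapped. These sums made up 0.885% ± 0.0207 of all FPKM in GapNC and 0.881% ± 0.0273 in GapC9. The large subunit summed to 1014, 968.1 and 913.3 FPKM in GapNC and to 1010, 891.3 and 926.5 FPKM in GapC9. The corresponding values of the small subunit were 494.4, 407.1 and 412.6 FPKM, and 441.1, 428.9 and 406.2 FPKM. Both subunits overlapped between the groups, and GapNC 1 held the highest small-subunit sum.

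Depth and identity of the libraries limit these values as follows. Taking the commonest low value of FPKM times transcript length as 1 fragment, the libraries held about 22.9 to 24.2 M (mega) fragments. The target CASC9 had 0, 0.0108 and 0 FPKM in the GapNC libraries and 0.0528, 0.107 and 0 FPKM in the GapC9 libraries, levels at which a fall could not have been seen, and an exact permutation test of these libraries cannot go below p = 0.1. CASC9 therefore gives no check of the labels, on which every direction below rests. All 6 epithelial markers (EPCAM, KRT8, KRT18, KRT19, CDH1 and CLDN7) were expressed, and summed to 1030 to 1431 FPKM in GapNC and 1021 to 1282 FPKM in GapC9. Leukocyte markers summed to at most 0.113 FPKM, endothelial markers to at most 0.110 FPKM and fibroblast markers to at most 1.58 FPKM in any library.

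All 78 members were expressed at 1 FPKM or more on average, and 0 were listed at 0 in any library. The median member had a mean of 13 FPKM, above 84.4% of the 16028 genes and loci tested, whose own median was 2.38 FPKM. The median was 14.7 FPKM for large-subunit genes and 11.2 FPKM for small-subunit genes. Proteins of the large subunit with counterparts in all ribosomes had a median of 21.9 FPKM (16 genes), compared with 10.2 FPKM for those shared only with bacteria (14 genes) and 12.8 FPKM for those found only in mitochondria (21 genes). The proteins encoded by these transcripts are assembled into a complex with nearly every protein in a single copy, but the transcript levels ranged from 1.32 to 57.0 FPKM.

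The highest mean belonged to MRPS18B, one of 3 paralogs related to the bacterial protein S18. Its FPKM was 64.4, 57.4 and 29.7 in GapNC and 69.5, 66.4 and 54.7 in GapC9, and the groups overlapped because GapC9 3 lay below the first 2 control libraries (log2 fold change 0.40, SE 0.30, limma adjusted p = 0.460). GapNC 3 was far below the other controls, and the log2 fold change was 0.055 without it and 0.61 without GapNC 1. MRPL15 followed with 46.2, 45.8 and 55.3 FPKM in GapNC and 64.5, 44.2 and 43.3 FPKM in GapC9 (log2 fold change 0.025, adjusted p = 0.950). MRPL51 had 52.9, 46.8 and 39.1 FPKM in GapNC and 43.7, 48.2 and 44.6 FPKM in GapC9 (log2 fold change -0.014, adjusted p = 0.962). For all 3 genes the groups were interleaved.

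The other 2 paralogs of MRPS18B were lower in every library. MRPS18A, the large-subunit paralog, was at 35.4, 28.6 and 26.1 FPKM in GapNC and 32.2, 27.3 and 27.01 FPKM in GapC9 (log2 fold change -0.051, adjusted p = 0.859). MRPS18C was at 4.69, 7.66 and 8.22 FPKM in GapNC and 6.04, 6.92 and 8.38 FPKM in GapC9 (log2 fold change 0.080, adjusted p = 0.872). The order MRPS18B, MRPS18A, MRPS18C held in all 6 libraries, although in GapNC 3 the first 2 were close, at 29.7 and 26.1 FPKM.

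The lowest means belonged to MRPL36 and to the joined rows of MRPL46 and MRPL53. MRPL36, a short bacterial-type protein, had 0.404, 0.881 and 2.75 FPKM in GapNC and 0.451, 2.82 and 0.628 FPKM in GapC9 (log2 fold change -0.089, SE 0.86, adjusted p = 0.964), so its libraries within a group differed more than its group means. The row of MRPL46, which also holds DET1, had 2.38, 1.83 and 2.10 FPKM in GapNC and 1.92, 1.83 and 1.97 FPKM in GapC9 (log2 fold change -0.13, adjusted p = 0.596). Without GapNC 1 the latter was -0.038, without GapNC 2 it was -0.22, and after median scaling -0.031. The row of MRPL53, which also holds CCDC142, was the next lowest, and its values are given with those of MRPL12.

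Between the groups, few members moved. Of the 78, 2 rose (MRPL32 and MRPL47) and 2 fell (MRPL37 and MRPS28) at a limma adjusted p under 0.05, with p-values adjusted over all 16028 genes and loci tested. The background was 1.89% of all genes and loci called higher and 5.1% called lower, or 6.99% in either direction, beside 5.13% of the members. At an unadjusted p under 0.05, 6 members were higher and 6 lower, compared with 9.09% and 16.8% of all genes and loci. No member combined a mean FPKM ratio outside 0.5 to 2 with an unadjusted limma p under 0.05 (0 higher and 0 lower), thresholds that 2.1% and 4.32% of all genes and loci passed.

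The fold changes of the members were also small in size. Their median log2 fold change was -0.0087 (quartiles -0.16 and 0.20), beside -0.076 over all genes and loci (quartiles -0.42 and 0.24). A log2 fold change between -0.5 and 0.5 was found for 70 members (89.7%), compared with 67.7% of all genes and loci, many of which are less abundant. Positive and negative values numbered 37 and 41, a balance that became 50 and 28 after median scaling of the libraries and 51 and 27 after correction for GC content. Over all genes and loci, 43.6% of the values were positive and 56.4% negative before these adjustments. Their median became 0.014 after median scaling and 0.022 after GC correction. Large-subunit genes had a median of -0.014, with 2 called higher and 1 lower, and small-subunit genes a median of 0.041, with 0 called higher and 1 lower.

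**Figure D1:**
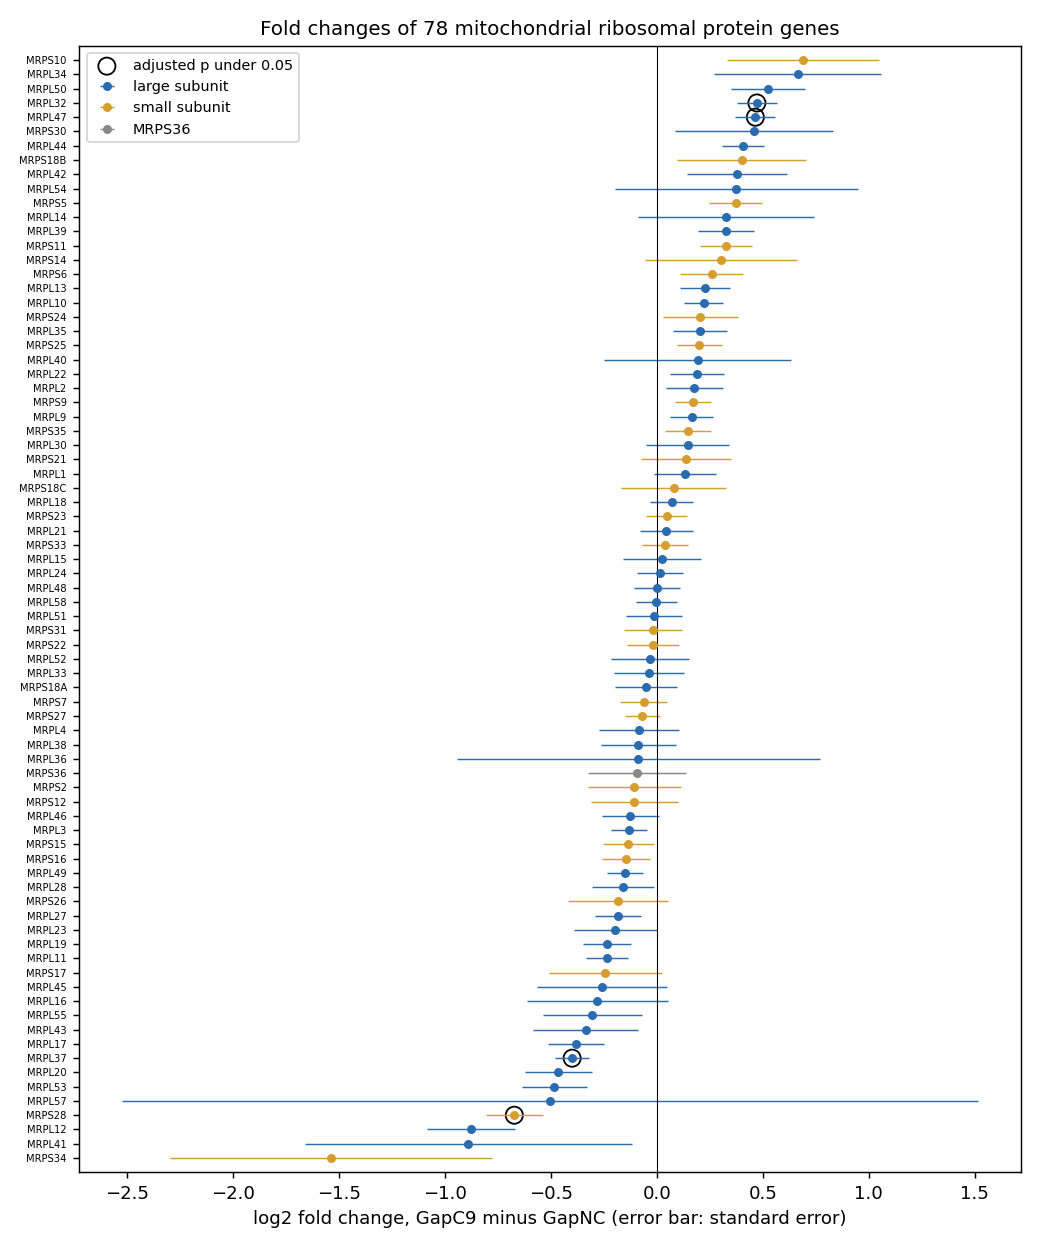
Log2 fold change (GapC9 minus GapNC, on log2(FPKM + 0.1)) of each of the 78 members, with its limma standard error as a bar, ordered from highest to lowest and coloured by subunit. The 4 ringed members passed an adjusted p under 0.05, and most of the others lie within 0.5 of zero, with MRPS34 at -1.54 and a wide bar for MRPL57.

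MRPL32 and MRPL47 rose by similar factors. MRPL32, a large-subunit protein whose mitochondrial precursor is cleaved by an inner-membrane protease before assembly, was at 12.6, 13.0 and 13.6 FPKM in GapNC and 19.0, 18.8 and 16.9 FPKM in GapC9. All GapC9 libraries lay above all GapNC libraries, with a ratio of 1.39 and a log2 fold change of 0.47 (SE 0.096, limma adjusted p = 0.0446). MRPL47, which sits near the exit of the peptide tunnel, was at 27.6, 29.5 and 29.04 FPKM in GapNC and 41.0, 36.3 and 42.0 FPKM in GapC9. Here too the groups were apart, with a ratio of 1.38 and a log2 fold change of 0.46 (SE 0.094, adjusted p = 0.0448). MRPL32 lies on chr7:42932200-42948958 (plus strand) and MRPL47 on chr3:179588285-179604654 (minus strand) in the GENCODE annotation of GRCh38. On the opposite strand, PSMA2 overlaps MRPL32 and ACTL6A overlaps MRPL47, so fragments could be shared if counting ignored strand.

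MRPL37 and the row of MRPS28 fell. MRPL37, a large-subunit protein found only in mitochondria (chr1:54184041-54225464, plus strand), was at 49.7, 48.2 and 46.3 FPKM in GapNC and 36.9, 35.0 and 37.2 FPKM in GapC9. The groups were apart, with a ratio of 0.757 and a log2 fold change of -0.40 (SE 0.081, adjusted p = 0.0442). Genes on the opposite strand, among them CYB5RL and SSBP3, overlap MRPL37, so here too fragments could be shared. MRPS28 lies on chr8:79918717-80030289 (minus strand), and its row also holds TPD52, so the fragments of the 2 genes cannot be told apart. That row was at 9.70, 12.5 and 12.7 FPKM in GapNC and 7.24, 7.32 and 7.01 FPKM in GapC9, with a ratio of 0.619 and a log2 fold change of -0.67 (SE 0.13, adjusted p = 0.0426). The GapC9 values were close together, and the lowest control, GapNC 1, was still above them.

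All 4 calls lay close to the threshold. When each of the 6 libraries was left out in turn, the adjusted p ran from 0.0638 to 0.165 for MRPL32, from 0.0684 to 0.148 for MRPL47 and from 0.0581 to 0.168 for MRPL37, so that leaving out any library ended these calls, while for MRPS28 it ran from 0.0250 without GapNC 1 to 0.139 and passed only without that library. All 4 calls also ended without a filter on low values (adjusted p from 0.0618 to 0.0722) and without limma's trend (0.0569 to 0.0874), while median scaling ended those of MRPL37 (adjusted p = 0.0781) and MRPS28 (0.0733), and GC correction those of MRPL32 (0.0889), MRPL47 (0.0794) and MRPL37 (0.0549). The share of all genes and loci called changed as well. From 6.99% it went to between 0.212% and 5.09% with single libraries left out. It was 1.76% without a filter, 5.60% without the trend, 5.45% after median scaling and 15.1% after GC correction.

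**Figure D2:**
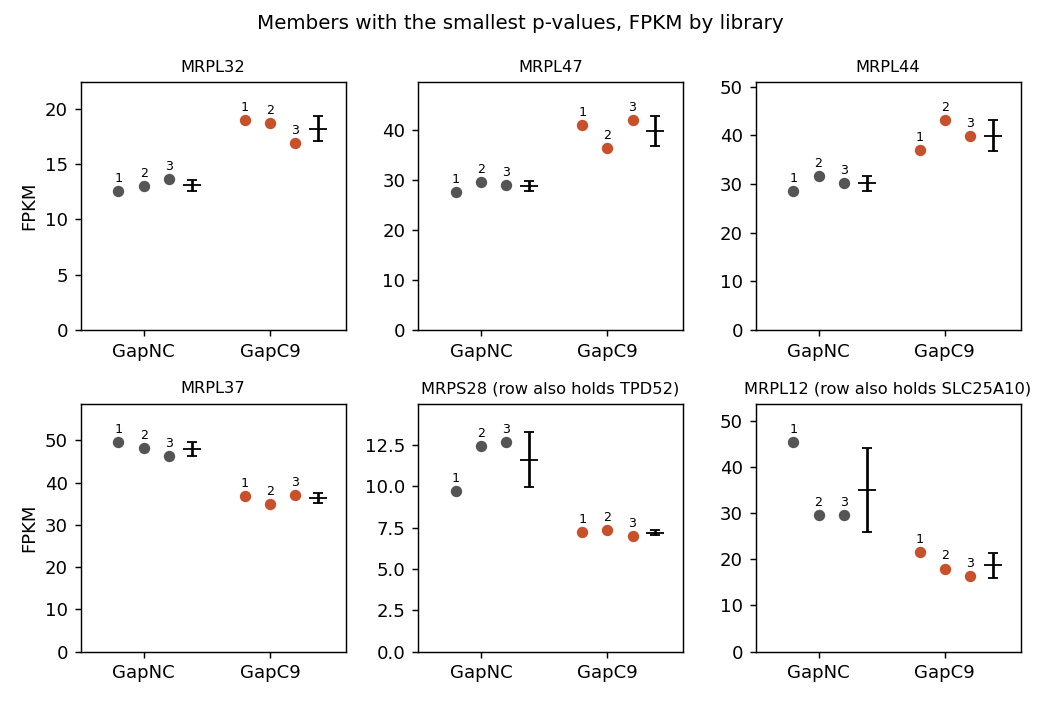
FPKM in each library (numbered points) of the 6 members with the smallest p-values, with the mean and SD of each group beside the points (n = 3) and axes from 0. In each panel the GapNC and GapC9 points do not overlap, with GapC9 higher for MRPL32, MRPL47 and MRPL44 and lower for MRPL37, MRPS28 and MRPL12.

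Promoter sequences were available in RefSeq for 69 of the 78 members, as windows of 300 bases that run from 250 bases before to 50 bases after the transcription start (GRCh38.p14). Those of MRPL32, MRPL47 and MRPL37 are given because these genes were called from rows that name no other gene. That of MRPS18B is given because it was the most abundant member. Capitals mark an exact match on either strand to CCGGAAG, the core of the binding sequence of ETS family factors, or to AAGATGGCG, a form of that of YY1.
MRPL32, chr7:42932126-42932425, plus strand: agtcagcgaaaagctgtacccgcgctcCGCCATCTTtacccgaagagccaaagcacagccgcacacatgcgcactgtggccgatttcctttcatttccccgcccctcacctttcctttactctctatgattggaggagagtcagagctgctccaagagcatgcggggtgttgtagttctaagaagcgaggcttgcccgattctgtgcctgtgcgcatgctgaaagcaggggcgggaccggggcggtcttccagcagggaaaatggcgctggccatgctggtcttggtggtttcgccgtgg
MRPL47, chr3:179604589-179604888, minus strand: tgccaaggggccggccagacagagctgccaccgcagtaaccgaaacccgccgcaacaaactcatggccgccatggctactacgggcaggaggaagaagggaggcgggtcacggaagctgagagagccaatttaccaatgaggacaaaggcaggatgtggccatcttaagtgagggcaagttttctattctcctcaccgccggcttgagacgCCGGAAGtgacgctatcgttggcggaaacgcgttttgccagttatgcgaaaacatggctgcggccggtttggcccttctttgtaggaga
MRPL37, chr1:54199917-54200216, plus strand: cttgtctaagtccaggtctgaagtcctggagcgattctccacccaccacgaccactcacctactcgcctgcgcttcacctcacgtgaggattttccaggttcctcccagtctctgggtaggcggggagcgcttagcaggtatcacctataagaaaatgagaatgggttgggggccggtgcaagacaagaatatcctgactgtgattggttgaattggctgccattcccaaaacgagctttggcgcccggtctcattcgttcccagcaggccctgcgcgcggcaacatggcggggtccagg
MRPS18B, chr6:30617590-30617889, plus strand: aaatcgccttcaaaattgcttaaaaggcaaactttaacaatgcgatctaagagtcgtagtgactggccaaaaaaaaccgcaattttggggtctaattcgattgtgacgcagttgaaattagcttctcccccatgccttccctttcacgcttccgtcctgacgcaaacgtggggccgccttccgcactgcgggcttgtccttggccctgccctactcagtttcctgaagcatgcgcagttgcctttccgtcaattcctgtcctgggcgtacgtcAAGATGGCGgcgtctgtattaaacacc
The window of MRPL32 held a YY1 match on the opposite strand, far upstream of the start, and that of MRPL47 an ETS match 39 bases before it. The window of MRPS18B held a YY1 match just after the start, and that of MRPL37 held neither string of letters. A match is only an exact occurrence of these letters. Near forms of the YY1 letters, such as aaaatggcg in the window of MRPL32 and aacatggcg in that of MRPL37, were not counted.

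ETS and YY1 letters were frequent in the promoter windows of the members. CCGGAAG occurred in 29 of 69 windows (42.0%), compared with 14.2% of 15842 protein-coding genes and 10.7% of all 27305 windows. AAGATGGCG occurred in 13 windows (18.8%), compared with 2.74% and 1.85%. Together, 38 member windows (55.1%) held one or the other and 4 held both, beside 16.3% of protein-coding windows with either, and 0 of the matches overlapped each other. Of 39 ETS matches, 33 began within the last 100 bases before the start or after it, with a median position of -22. Of 14 YY1 matches, 13 did so, and 10 of them lay after the start. Letters of other core promoter factors gave other proportions, with the NRF1 element, a palindrome of 10 bases, in 1 window (1.45%, beside 1.76% of protein-coding windows), GGGCGG (SP1) in 42 (60.9%, beside 58.5%), CCAAT in 20 (28.99%, beside 36.4%) and TATAAA in 2 (2.90%, beside 9.63%). The median GC content of the windows was 60.3% for members and 62.7% for protein-coding genes. All 6 motifs were searched on both strands.

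The presence of these letters was also counted among members whose groups did not overlap, as a description. Of 11 such members that were higher in GapC9 and had a window, 2 held the ETS and 3 the YY1 letters. Of 11 that were lower, 4 held the ETS and 0 the YY1 letters. Near forms of the letters were not counted. With so few members, the difference between these proportions was not tested.

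Several large-subunit genes had values apart between the groups without passing the adjusted threshold. MRPL44, a protein with a ribonuclease III-like domain, was at 28.5, 31.7 and 30.2 FPKM in GapNC and 36.9, 43.1 and 39.8 FPKM in GapC9 (log2 fold change 0.40, SE 0.098, adjusted p = 0.0648). MRPL50 was at 8.34, 10.2 and 12.6 FPKM in GapNC and 13.2, 15.2 and 15.99 FPKM in GapC9 (0.52, SE 0.17, adjusted p = 0.130, and a log2 fold change of 0.34 after GC correction). With that correction the limma adjusted p was 0.0170 for MRPL44 and 0.0341 for MRPL50. In the small subunit, the row of MRPS5, which also holds ZNF514, was at 4.47, 4.42 and 3.88 FPKM in GapNC and 6.20, 5.32 and 5.13 FPKM in GapC9 (0.37, SE 0.12, adjusted p = 0.133). In these 3 genes every GapC9 library was above every GapNC library.

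The lowest fold changes among members with an unadjusted p under 0.05 came from MRPL12, MRPS28, MRPL53, MRPL20 and MRPL37. MRPL12, the protein of the flexible stalk that recruits translation factors, shares its row with SLC25A10, a mitochondrial dicarboxylate carrier. That row was at 45.4, 29.7 and 29.7 FPKM in GapNC and 21.6, 18.0 and 16.4 FPKM in GapC9 (log2 fold change -0.88, SE 0.21, adjusted p = 0.0612). GapNC 1 was the highest of the 6, and the other controls were still above all GapC9 libraries. MRPL20 was at 37.9, 32.7 and 29.3 FPKM in GapNC and 28.5, 21.0 and 23.03 FPKM in GapC9 (-0.47, SE 0.16, adjusted p = 0.135), with GapNC 3 and GapC9 1 nearly touching. The row of MRPL53 and CCDC142 was at 4.49, 3.42 and 3.54 FPKM in GapNC and 3.01, 2.45 and 2.60 FPKM in GapC9 (-0.48, SE 0.15, adjusted p = 0.118). After GC correction the log2 fold changes were closer to zero, with values of -0.53 for MRPL12, -0.31 for MRPL20, -0.26 for MRPL53 and -0.25 for MRPL37. The limma adjusted p was then 0.0115 for MRPL12, 0.136 for MRPL20, 0.0940 for MRPL53 and 0.0549 for MRPL37. MRPL58, a peptidyl-tRNA hydrolase built into the large subunit that releases chains from stalled ribosomes, was at 24.2, 22.6 and 21.5 FPKM in GapNC and 24.1, 21.3 and 22.9 FPKM in GapC9 (-0.0033, SE 0.098, adjusted p = 0.990).

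In all, the 3 values of one group lay entirely above those of the other for 25 members. GapC9 was the higher group for 13 and the lower for 12, where 12.6% and 21.6% of all genes and loci were apart in these directions. These counts became 20 and 7 after median scaling, and 22 and 9 after GC correction. The shares of all genes and loci apart at these settings were not counted. Their median log2 fold change was -0.076 before, 0.014 after median scaling and 0.022 after GC correction. Of the large-subunit genes 8 were higher and 10 lower, and of the small-subunit genes 5 were higher and 2 lower. Many of these shifts were small: MRPS27 was at 17.1 FPKM in each GapNC library and at 16.9, 16 and 16.01 FPKM in GapC9, a log2 fold change of -0.069. MRPL3, whose protein lies near the peptidyl transferase centre, was at 46.7, 47.1 and 48.5 FPKM in GapNC and 46.3, 41.0 and 42.7 FPKM in GapC9 (-0.13). These 2 genes were chosen after their values were seen.

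A wide range inside a group was found for 13 members (16.7%), whose highest library was more than 2-fold above the lowest in at least one group, compared with 19.1% of the 10229 genes and loci of at least 1 FPKM. The remaining 65 stayed within 2-fold in both groups. The extreme was MRPL57, a small protein of the large subunit also known as MRP63, at 21.6, 21.5 and 0.919 FPKM in GapNC and 24.2, 0.251 and 19.5 FPKM in GapC9 (log2 fold change -0.51, SE 2.02, adjusted p = 0.902). A single library of each group was low, and the other 4 agreed within 19.5 to 24.2 FPKM. The values below, apart from those of MRPL36 given above, were chosen after they were seen. MRPS34, a small-subunit protein (chr16:1771890-1773155, minus strand), had the lowest log2 fold change of all members, -1.54 (SE 0.76, adjusted p = 0.262), from 55.8, 9.69 and 49.5 FPKM in GapNC and 9.49, 18.3 and 6.17 FPKM in GapC9. Its GapNC 2 value lay within the GapC9 range, and without that library the log2 fold change was -2.35. EME2, a DNA repair nuclease subunit that starts next to MRPS34 on the opposite strand, was at 4.08, 2.58 and 2.53 FPKM in GapNC and 1.32, 1.16 and 1.38 FPKM in GapC9 (-1.16, SE 0.21, adjusted p = 0.0368, and 0.0332 to 0.130 with single libraries left out, where it passed in 1 of 6 cases).

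MRPL41, MRPS10 and MRPL54 were of the same kind. MRPL41 was at 31.5, 18.1 and 18.3 FPKM in GapNC and 24.5, 3.30 and 19.8 FPKM in GapC9 (log2 fold change -0.89, SE 0.77, adjusted p = 0.510), and without GapC9 2 the log2 fold change was 0.0098. MRPS10 was at 9.66, 11.1 and 10.8 FPKM in GapNC and 13.1, 12.3 and 30.6 FPKM in GapC9 (0.69, SE 0.36, adjusted p = 0.283), where GapC9 3 stood apart from the other 2 and the log2 fold change without it was 0.27. MRPL54 was at 7.62, 14.8 and 4.80 FPKM in GapNC and 15.6, 14.8 and 5.15 FPKM in GapC9 (0.38, SE 0.57, adjusted p = 0.718), and with single libraries left out its log2 fold change ran from -0.00097 to 0.89. No library was low in all of these genes, but some low libraries were shared. MRPL57 and MRPL41 were lowest in GapC9 2, MRPS34 in GapC9 3 and MRPL54 in GapNC 3, where MRPL57 was also low (0.919 FPKM). MRPL36 and MRPS10 were lowest in GapNC 1.

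**Figure D3:**
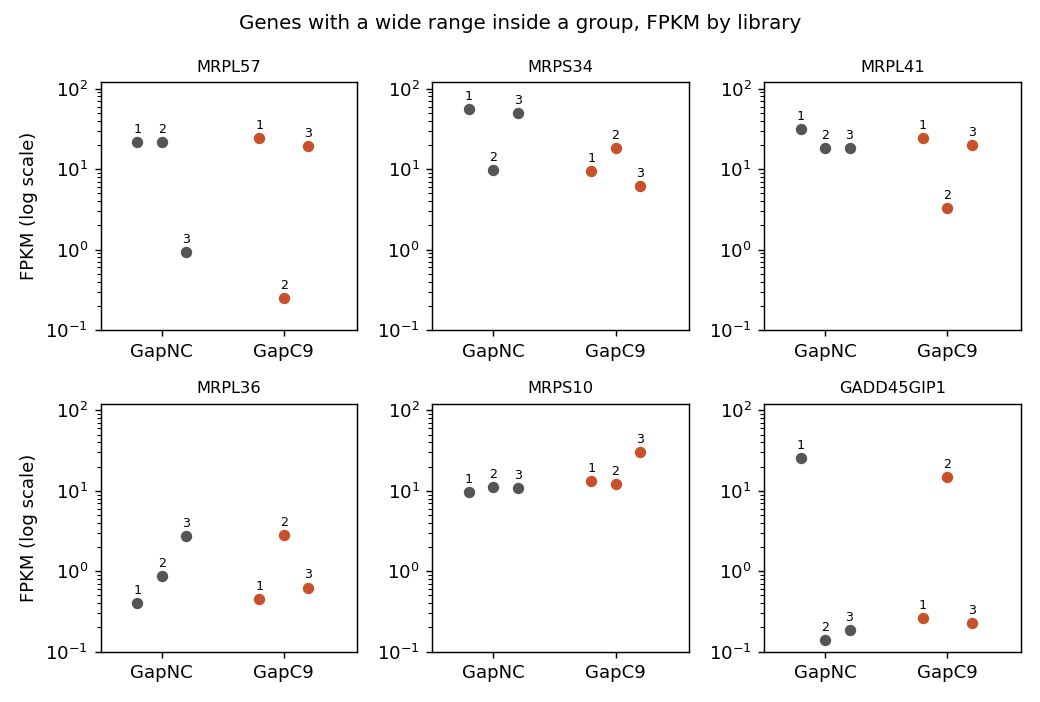
FPKM on a log axis in each library (numbered points) of 5 members with more than a 2-fold range inside a group and of GADD45GIP1, a large-subunit protein without an MRPL name. For MRPL57 and GADD45GIP1 each library lies either between 14.9 and 25.8 FPKM or below 1 FPKM. GapNC 3 is low for both, and their other low libraries differ.

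The fold changes of the members varied with the GC content of the transcripts in their rows. Members were divided by GC content into 3 sets of 26. In the set of lowest GC content (35.0% to 44.9%), 19 fold changes were positive and 7 negative, with a median log2 fold change of 0.18, and all genes and loci in that range had a median of 0.086. In the middle set the median was -0.035 and in the set of highest GC content (53.7% to 71.9%) it was -0.098, with 9 positive and 17 negative in each, beside medians of -0.062 and -0.23 for all genes and loci. Across the 78 members, Spearman's rho of log2 fold change with GC content was -0.425, and it was -0.257 across 15909 genes and loci with a known GC content. These values share libraries and are a description.

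The libraries also differed in their relation to GC content. The deviation of each library from the member's mean over all 6 correlated with GC content at rho of 0.639, -0.0355 and -0.115 for the GapNC libraries and 0.248, -0.270 and -0.635 for the GapC9 libraries, so that GapNC 1 and GapC9 3 lay at opposite ends. Over genes and loci of at least 1 FPKM, rho was 0.630, 0.0103 and -0.107 in GapNC and 0.0259, -0.344 and -0.389 in GapC9. Without GapNC 1, rho of log2 fold change with GC content was -0.196 across members. The medians of the 3 sets were then 0.14, 0.021 and 0.046, beside 0.0081, -0.044 and -0.12 for all genes and loci in these ranges. After correction of each library for GC content, the medians of the sets were 0.12, 0.043 and 0.17, beside 0.022, 0.018 and 0.024. The part of GC content in any single fold change was not tested. With the length of the longest transcript of the row, rho across members was 0.105. GC content was taken over all transcripts of a row. For the 13 members whose rows join names, GC content and length therefore draw on neighbouring genes too.

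The genes lie on 21 chromosomes, and 0 of them on chromosome X, chromosome Y or the mitochondrial genome. A protein-coding gene started divergently within 1000 bases of 17 members (21.8%), compared with 7.38% of 19951 protein-coding genes. For 38 members, among them MRPL32, MRPL47, MRPL37 and MRPS28, the annotation has an overlapping gene on the opposite strand. Whether counting used strand is not given in the sources used here, so those fragments may be shared. The rows of 13 members join the names of 1 or more neighbouring genes. Without these rows, 2 of 65 members were called higher and 1 lower, and the median log2 fold change was -0.0014. Processed pseudogenes or other annotated pseudogenes exist for 34 members, with which near-identical fragments could also be shared.

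Ribosomal subunits without an MRPL or MRPS name showed 1 fall among 5. DAP3, a GTP-binding protein of the small subunit, was at 19.0, 18.1 and 18.6 FPKM in GapNC and 14.2, 14.1 and 13.5 FPKM in GapC9 (log2 fold change -0.41, SE 0.084, limma adjusted p = 0.0454). The groups were clearly apart, although the adjusted p rose to between 0.0570 and 0.158 when any library was left out. PTCD3, a pentatricopeptide protein of the small subunit, was at 7.38, 10.3 and 8.56 FPKM in GapNC and 6.34, 7.83 and 6.003 FPKM in GapC9 (log2 fold change -0.37, adjusted p = 0.233). CHCHD1 was at 10.9, 9.82 and 8.64 FPKM in GapNC and 8.12, 10.9 and 10.3 FPKM in GapC9 (-0.0083, adjusted p = 0.983). AURKAIP1 was at 56.6, 34.6 and 34.8 FPKM in GapNC and 36.8, 27.8 and 26.7 FPKM in GapC9 (-0.44, adjusted p = 0.299), with GapNC 1 high. Its log2 fold change was -0.21 without that library and -0.048 after GC correction. GADD45GIP1 was at 25.8, 0.140 and 0.188 FPKM in GapNC and 0.265, 14.9 and 0.228 FPKM in GapC9 (0.0022, SE 2.33, limma adjusted p = 0.9997), so that 1 library of each group carried nearly all of its signal.

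Genes that assemble the mitochondrial ribosome or work with it showed falls in a few members. Of 29 assembly and rRNA modification factors 0 rose and 2 fell, of 18 translation factors 0 rose and 1 fell, and of 10 genes for mitochondrial DNA maintenance and transcription 0 passed in either direction (at an unadjusted limma p under 0.05, 1 was higher and 0 lower). Together with the 5 subunits above, these were 4 of 62 genes (6.45%), close to the 6.99% of all genes and loci called, and their median log2 fold change was -0.032. At an unadjusted limma p under 0.05, 6 of the 62 were higher and 5 lower, beside 9.09% and 16.8% of all genes and loci. After GC correction, 4 of the 62 were called higher and 3 lower, where 15.1% of all genes and loci were called. YBEY, an RNA endonuclease needed for the small subunit, was at 4.98, 5.90 and 5.83 FPKM in GapNC and 3.36, 3.28 and 3.69 FPKM in GapC9 (-0.68, SE 0.12, adjusted p = 0.0336). MTERF4, which acts in large-subunit assembly, was at 2.52, 2.003 and 2.32 FPKM in GapNC and 1.54, 1.24 and 1.19 FPKM in GapC9 (-0.75, SE 0.16, adjusted p = 0.0475). GFM1, the elongation factor that moves the ribosome along the mRNA, was at 5.64, 6.33 and 5.87 FPKM in GapNC and 3.64, 3.91 and 4.17 FPKM in GapC9 (-0.59, SE 0.11, adjusted p = 0.0368). In all 3 genes every GapC9 library lay below every GapNC library. With single libraries left out, the adjusted p reached 0.130 for YBEY and 0.133 for GFM1, each of which passed in 1 of 6 cases, and 0.160 for MTERF4, which passed in 0. Median scaling ended the calls of DAP3 (adjusted p = 0.0818), YBEY (0.0599), MTERF4 (0.0596) and GFM1 (0.0682), and GC correction that of YBEY (0.0763). Without a filter on low values these 4 calls ended as well (0.0510 to 0.0863), a pseudocount of 1 ended that of MTERF4 (0.0512), and fitting without the trend ended those of DAP3 (0.0786) and MTERF4 (0.0543).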

How the data were processed

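Poly(A) RNA of 6 HCT-116 libraries was sequenced as paired ends. The authors mapped the reads with HISAT and computed the deposited FPKM values with StringTie, in 1 table of 27918 genes and loci that was used as deposited, with 0 value columns unused. The submitters' processing notes name HISAT2 2.0, StringTie 1.3.0 and Bowtie 0.12.2. They also list mm8, a mouse build, for these human libraries. The human build behind the values is not given in the sources used here, so coordinates come from GENCODE v29 (GRCh38), matched by gene. StringTie can join neighboring genes into 1 row, as in 1063 rows. The authors' edgeR comparison was not rerun because no counts were used here.

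In R 4.3.3, limma 3.58.1 (eBayes, trend on) was fitted to log2(FPKM + 0.1), with group as the only term, 6 libraries in one fit and two-sided p-values. Rows whose mean reached 0.1 FPKM were kept, and Benjamini-Hochberg adjustment ran over all 16028 of them. Fold changes are on this scale, and SEs are from limma. Tables were handled in Python 3.11.15 with pandas 2.3.3. Depth was estimated from the commonest low product of FPKM and transcript length, in rows with a single transcript and within a range set beforehand. No counting error can be given. Members named with all values were those with adjusted p under 0.05, the 5 largest rises and 5 largest falls among those with unadjusted p under 0.05, the 3 highest and 3 lowest in mean FPKM, MRPS18A to MRPS18C, MRPL57 and MRPL58, the 5 subunits without an MRPL or MRPS name, and genes of the other lists with adjusted p under 0.05. Others were chosen after their values were seen. The members and gene lists were chosen with earlier results of these data known.

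Alternatives were pseudocounts of 1 and 0.01, a filter of 1 FPKM or none, median scaling, a GC correction per library (lowess, span 0.3), limma without trend, a replicate block, each library left out, and rows of a single gene name only.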

Additional observations from a re-analysis of the deposited data

How the results depend on the processing

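With both other pseudocounts the same 4 members were called, and with a pseudocount of 1 the other mitochondrial translation genes called lower numbered 3 in place of 4, without MTERF4. Without a filter on low values 0 members were higher and 0 lower, and 0 of the other mitochondrial translation genes were lower, as 27918 genes and loci were then tested. Of these, 146 were called higher and 346 lower. With a filter of 1 FPKM, MRPL12 was called as well (2 higher and 3 lower, 6.41% of members). Of the 10229 genes and loci then tested, 310 were higher and 890 lower (11.7%). Median scaling gave 2 higher and 0 lower members, 0 other genes lower, 20 members apart upward and 7 downward, and a median log2 fold change of 0.092. All genes and loci then had 362 higher and 511 lower, and a median of 0.014. GC correction gave 5 higher (MRPL2, MRPL10, MRPL44, MRPL50 and MRPS11) and 2 lower (MRPL12 and MRPS28), 22 apart upward, 1 past the fold and unadjusted p upward, a median of 0.11 and 4 other genes higher, while all genes and loci had 1135 higher and 1280 lower. Without the trend, 0 members were higher and 0 lower, and 2 other genes were lower, beside 238 higher and 660 lower over all genes and loci. In rows of a single gene name 1 member was lower. The causes were not tested.

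With single libraries left out, 0 members were called higher and 0 to 1 lower (MRPS28, without GapNC 1), 0 to 2 other genes were lower, 0 to 1 members passed the fold and unadjusted p upward and 0 to 2 downward, and the median ran from -0.0089 to 0.050. Over all genes and loci, calls fell from 303 higher and 817 lower to between 16 and 241 higher and between 17 and 573 lower.

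The replicate numbers are not stated to pair libraries, and deviations of same-numbered libraries correlated at 0.114, 0.0362 and 0.0332, with GapNC 3 closer to GapC9 2 (0.0867) than to its own number. A replicate block gave 0 calls in either direction over all genes and loci, and so 0 members higher, 0 lower and 0 other genes lower, with 8 members higher and 9 lower at an unadjusted limma p under 0.05.

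Several log2 fold changes near zero changed sign. Median scaling and GC correction gave 0.086 and 0.067 for MRPL51, 0.097 and 0.12 for MRPL58, 0.049 and 0.17 for MRPS18A, and 0.091 and 0.0087 for CHCHD1. Median scaling gave 0.081 for MRPS31, GC correction gave 0.079 for MRPL36 and -0.031 for MRPS18C, and a pseudocount of 1 gave -0.18 for GADD45GIP1. With single libraries left out, the values ran from -0.16 to 0.13 for MRPL15, from -0.82 to 0.58 for MRPL36, from -1.42 to 0.0098 for MRPL41, from -0.13 to 0.087 for MRPL51, from -0.00097 to 0.89 for MRPL54, from -1.98 to 1.48 for MRPL57, from -0.046 to 0.044 for MRPL58, from -0.14 to 0.073 for MRPS18A, from -0.17 to 0.23 for MRPS18C, from -0.13 to 0.067 for MRPS31, from -0.094 to 0.12 for CHCHD1 and from -1.81 to 2.21 for GADD45GIP1.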

Other observations

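Among pseudogenes of the family, 13 rows of the table carried an MRPL or MRPS pseudogene symbol, none of which was a member. MRPS31P5 was at 1.56, 1.82 and 1.97 FPKM in GapNC and 3.33, 3.79 and 3.50 FPKM in GapC9 (log2 fold change 0.96, SE 0.13, limma adjusted p = 0.0231). A row that joins MRPS31P4 with HNRNPA1L2 was at 3.01, 3.79 and 3.89 FPKM in GapNC and 6.53, 6.73 and 6.97 FPKM in GapC9 (0.91, SE 0.13, adjusted p = 0.0254). In both, every GapC9 library was above every GapNC library, and the adjusted p of MRPS31P5 ran from 0.0324 to 0.101 with single libraries left out. MRPS31 itself was at 5.62, 6.79 and 7.40 FPKM in GapNC and 6.15, 6.30 and 7.03 FPKM in GapC9 (-0.018, adjusted p = 0.951). Fragments that fit both the gene and a pseudogene could be assigned to either, and the difference between the fold changes was not tested. These genes were chosen after their values were seen.

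Genes encoded by mitochondrial DNA, including the 16S RNA of the mitochondrial ribosome (MT-RNR2), were spread over 5 rows that went different ways. One row of MT-RNR2 was at 8.17, 12.8 and 10.999 FPKM in GapNC and 4.53, 4.67 and 6.05 FPKM in GapC9 (log2 fold change -1.04, SE 0.21, limma adjusted p = 0.0426). A more abundant row that joins MT-RNR2 with MT-ND6 and tRNA genes was at 16.5, 109 and 98.7 FPKM in GapNC and 248.4, 76.9 and 52.5 FPKM in GapC9 (0.83, SE 0.91, adjusted p = 0.606). The level of the 16S RNA was therefore not read from either. MT-ND2 carried nearly the same values as the first row in every library (8.09, 12.7 and 10.9 FPKM in GapNC and 4.50, 4.65 and 6.01 FPKM in GapC9, -1.04, adjusted p = 0.0432). MT-ND5 was at 232, 2214 and 277 FPKM in GapNC and 2082, 60.1 and 2582 FPKM in GapC9 (0.39, SE 1.67, adjusted p = 0.909), and MT-CO1 was listed at 0 in 5 libraries and at 85.5 FPKM in GapC9 3.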
